A study of Sus scrofa with 11 samples.

Results

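The comparison concerns diet in chronically ischemic hearts that received vehicle and no vesicles. It sets 2 arrays titled HFD, from pigs on a high fat diet, against 3 arrays titled ND, from pigs on a normal diet. These 5 arrays were chosen by their titles from the 11 arrays of the series. All pigs were intact male Yorkshire swine that ate their diet for 12 weeks. Every pig, on either diet, carried an ameroid constrictor, a swelling ring that slowly closes the artery it encircles, on the left circumflex coronary artery, so the ND hearts were ischemic as well. Vehicle (written vehicle-daline in the labels) was injected into the ischemic muscle, and tissue of the ischemic zone of the left ventricle was taken 5 weeks later. The other 6 arrays, HFD+EV (3) and ND+EV (3), came from pigs on the same diets whose muscle was injected with extracellular vesicles (EV), membrane particles that cells release. Those 6 arrays served to estimate the spread between replicates and to give a diet comparison that shares no array with the vehicle hearts. The titles call the arrays of a group biological replicates, and no label names an animal, a cohort or a processing day, so whether arrays of a group share one was not tested.

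Heart muscle makes nearly all of its ATP in mitochondria, where fatty acids, glucose, lactate, ketone bodies and branched-chain amino acids are broken down to feed the respiratory chain. The chain's subunits are mostly encoded in the nucleus, made on cytosolic ribosomes and imported, while a small set is encoded in mitochondrial DNA. A high fat diet supplies more fatty acid, which the heart takes up through carriers such as CD36, stores in lipid droplets or oxidises, and fatty acids act through the PPAR receptors on the genes of their own breakdown. Cells under metabolic load also draw on protein quality control, in which chaperones refold proteins, the endoplasmic reticulum (ER) checks secreted ones, and the proteasome and autophagy remove damaged ones.

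Values are log2 signals per probe set, the group of short probes that reads 1 transcript, and a difference of 1 is a doubling. Array values are given in the order of the replicate numbers. Ventricular markers were bright, and MYL2, the ventricular myosin light chain, read 13.17 and 13.22 in HFD against 12.40, 13.03 and 13.03 in ND. The HFD arrays resembled each other (r = 0.974 across probe sets), whereas ND replicate 1 correlated with the other vehicle arrays at 0.897 to 0.944. The first principal component of the 5 arrays held 52.3% of their variance and placed HFD at -32.9 and -41.2, ND replicate 2 at 3.03, ND replicate 3 at 20.3 and ND replicate 1 at 50.8. ND replicate 2 thus lay closest to the HFD arrays and ND replicate 1 farthest from them. The spread of log2 signal was wider on the HFD arrays (SD 1.59 and 1.62) than on the ND arrays (1.45, 1.51 and 1.47), and the diet difference grew with signal (r = 0.337 across probe sets). Over 5 equal bins of probe sets, from the dimmest to the brightest, its median was -0.13, -0.11, -0.05, 0.10 and 0.32. The part of this slope in any gene's difference was not tested.

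In limma's test over all 11 arrays, with Benjamini-Hochberg adjustment and a threshold of 0.05, 152 of 20668 probe sets passed (0.735%), of which 106 were higher in HFD (0.513%) and 46 lower (0.223%). A fold change was 1.52 to 5.22 among those that rose and 1.57 to 4.09 among those that fell. Among probe sets that rose 55.7% carried exactly 1 gene symbol, against 17.4% of those that fell and 50.4% of all, so most probe sets that fell have no single gene name here. Counting each gene once, 63 of 9738 genes passed (0.647%), with 55 higher (0.565%) and 8 lower (0.0822%). Without 4 uncharacterised loci these were 54 higher and 5 lower genes. Whatever their p, 5307 of the 9738 genes were above 0 (54.5%), the share to set beside the counts of higher genes in the lists below. The adjusted p of every probe set that passed lay between 0.0471 and 0.0492.

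These calls sat close to the threshold and most ended when the fit was altered. Leaving out HFD replicate 2 left 0 probe sets, as did leaving out HFD+EV replicate 2 or 3 or any ND+EV array. Leaving out HFD replicate 1, ND replicate 1 or ND replicate 3 left 7, 1 and 4 higher and 0, 0 and 8 lower. Without ND replicate 2 there were 896 higher and 460 lower, and without HFD+EV replicate 1 there were 529 and 193. The sizes moved less than the calls, but part of this was fixed in advance. The genes were picked on this same comparison, and HFD and ND overlapped for no probe set that passed. Leaving out vehicle arrays could therefore not reverse a direction, and leaving out EV arrays left every difference unchanged. All 59 named genes that passed kept their direction under every alternative tried, stayed within 1.5 times of their difference without any single vehicle array, and 55 of the 59 did so with both ND replicates 1 and 3 left out. The exceptions were RAB14, UBE2B, ANP32A and RNGTT (the last 2 named after their values were seen), at 0.68, 1.06, 0.61 and 0.61 in place of 1.19, 1.78, 0.95 and 0.92. A 2 against 3 comparison on its own could reach no exact permutation p below 0.2 for a single gene, two-sided.

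**Figure D1:**
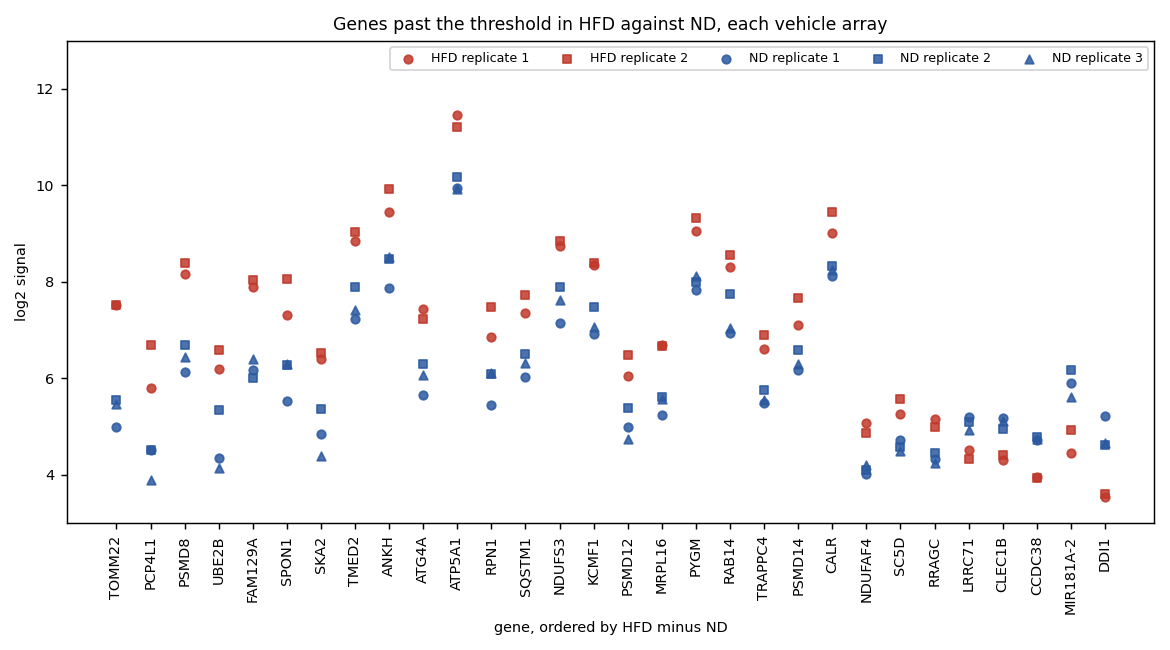
Log2 signal of each vehicle array for the 30 genes past the threshold that the naming rule picked, ordered from the largest rise to the largest fall in HFD against ND. Red marks are the 2 HFD arrays, blue marks the 3 ND arrays, and the colours do not mix for any gene, with TOMM22 near 7.5 in HFD and at most 5.56 in ND.

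Among the named genes that passed, TOMM22 had the largest rise. It encodes the central receptor of the outer membrane complex through which mitochondrial proteins are imported, and read 7.51 and 7.52 on the HFD arrays and 4.98, 5.56 and 5.47 on the ND arrays, a log2 difference of 2.18 ± 0.41 (SE). Both HFD values lay above all ND values. Among 21 measured genes of mitochondrial import, 19 were higher and TOMM22 was the only one to pass, with a median difference of 0.42 against 0.04 over all 9738 genes. PMPCB (1.14), a subunit of the peptidase that trims imported proteins, and HSPA9 (0.67), the chaperone that pulls them into the matrix, did not pass.

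The respiratory chain held the list with the highest median of all 50 pathway lists. Of 31 nuclear-encoded subunits of complex I, which takes electrons from NADH, 29 were higher in HFD, with a median of 0.95. Unadjusted p was under 0.05 for 21 of them, all higher, where 16.6% of all genes were higher and 7.41% lower at that level. NDUFS3, a core subunit of its peripheral arm, was the single one to pass the threshold. It read 8.75 and 8.84 in HFD and 7.15, 7.88 and 7.63 in ND, a difference of 1.24 ± 0.23 (SE). NDUFAB1 (1.0) and NDUFC1 (0.98) had the next smallest p. The widest differences belonged to the accessory subunits NDUFC2 (2.07 ± 0.52) and NDUFB6 (1.73 ± 0.42), named after their values were seen, which did not pass. NDUFC2 read 7.53 and 8.0 in HFD, and its ND arrays were far apart at 4.81, 6.68 and 5.61. NDUFA3 (-0.61) and NDUFB7 (-0.16) were the members below 0.

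In complexes II to V, 17 of 19 genes were higher with a median of 0.74. ATP5A1, the alpha subunit of the ATP synthase, rose from 9.95, 10.17 and 9.93 in ND to 11.45 and 11.22 in HFD, a difference of 1.32 ± 0.23 (SE). It was among the brightest genes that passed. The synthase subunits ATP5F1 (1.23) and ATP5B (1.10) did not pass, and neither did ATP5O (2.11) and the cytochrome c oxidase subunit COX6C (1.65), both named after their values were seen. Of 15 assembly factors 13 were higher with a median of 0.25, and NDUFAF4, which helps build complex I, rose by 0.86 ± 0.16 (SE). All 8 coenzyme Q synthesis genes were higher, none past the threshold, with COQ10A at 1.36 and COQ5 at 0.96 (median 0.32, or 0.48 without ND replicate 2).

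The size of these medians depended on ND replicate 1. A list score is an array's average deviation from the 5-array mean, taken over the genes of the list. It was -0.90 for complex I on ND replicate 1, 0.07 on ND replicate 2, -0.20 on ND replicate 3, and 0.57 and 0.45 on HFD. The groups did not overlap, and the array farthest from the rest was ND replicate 1. Without it the complex I median was 0.61 and that of complexes II to V 0.46. Cyclic loess, which removes trends with signal, brought them to 0.54 and 0.27. These are bright genes, with a median signal of 8.22 for complex I against 5.02 for all genes, and the brightest of the 5 bins of probe sets had a median difference of 0.32.

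**Figure D2:**
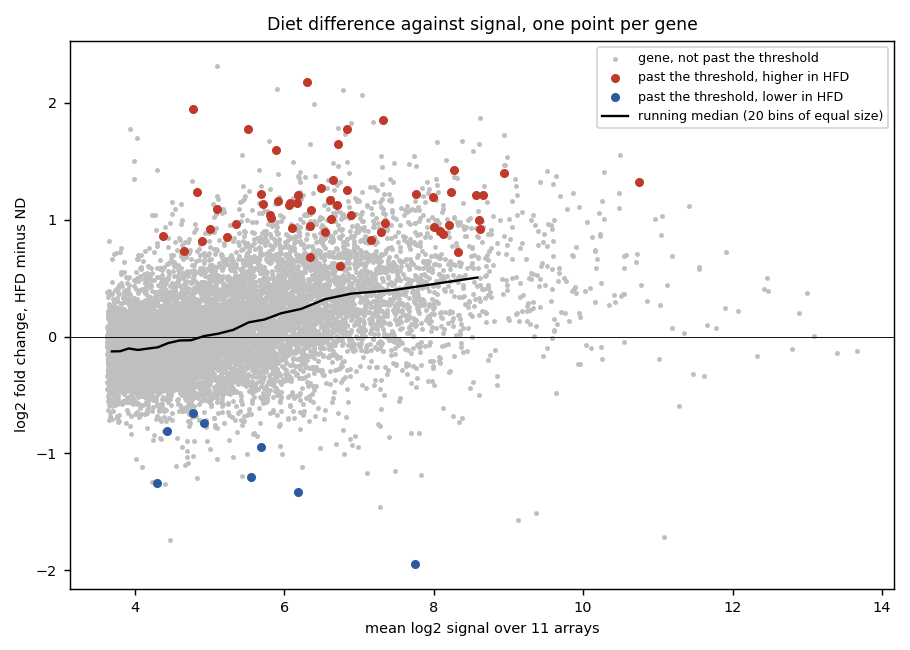
Difference HFD minus ND (log2) of each of 9738 genes against its mean log2 signal over the 11 arrays, with a black line for the running median over 20 bins of equal size. Red and blue points passed the threshold as higher or lower, and the line climbs from below 0 among dim genes to above 0 among bright ones.

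The 8 measured genes of mitochondrial DNA were mostly lower. Only 2 of the 8 were above 0, CYTB (0.10) and COX1 (0.0047), and the median was -0.21. Genes with the smallest p were lower in HFD and did not pass: ND3, a complex I subunit gene, read 10.85 and 10.79 in HFD against 11.69, 11.16 and 11.40 in ND (a difference of -0.60, limma adjusted p = 0.128). COX2 (-0.34) and ND6 (-0.35, or -0.21 without ND replicate 3) also had all HFD values below all ND values. Of the 8 genes 5 stood so, where 15.9% of all genes did. ND replicates 1 and 3 had the highest scores of this list (0.15 and 0.17), ND replicate 2 lay at -0.07 and HFD at -0.12 and -0.13. Without ND replicate 1 the median was -0.11, without ND replicate 2 it was -0.32, and under cyclic loess -0.57.

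Mitochondrial ribosomal proteins make the subunits that this DNA encodes, and 46 of their 52 measured genes were higher with a median of 0.52 (0.34 without ND replicate 1). MRPL16 passed, at 6.69 and 6.67 in HFD and 5.23, 5.61 and 5.58 in ND. MRPL3 (1.0) and MRPS22 (0.74) followed without passing. The regulators of mitochondrial number and shape showed no such shift: 7 of 15 were higher, 8 lower, with a median of -0.03 that changed sign under some alternatives. Among them BNIP3L, a receptor for the removal of mitochondria, was at 0.93 and the nuclear receptor ESRRB at -0.70 (-0.39 without ND replicate 3), neither past the threshold.

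Genes of fuel breakdown were higher as groups, with 1 gene past the threshold. It was PYGM, the muscle phosphorylase that releases glucose from glycogen, which read 9.05 and 9.33 in HFD and 7.82, 8.01 and 8.13 in ND, a difference of 1.21 ± 0.21 (SE). Of 13 glycogen genes 10 were higher (median 0.41), among them GYG1 (1.18), the primer of glycogen, and the synthase GYS1 (0.91). In glycolysis and glucose uptake 15 of 17 were higher (median 0.50), led by LDHA (1.15), which converts pyruvate to lactate, TPI1 (0.82) and GPI (0.69). The TCA cycle with pyruvate entry had 19 of 20 higher (median 0.59), with DLD (1.10), DLAT (1.08) and PDHX (0.56), parts of the pyruvate dehydrogenase complex, at the smallest p. The second probe set of DLAT pointed the other way. Under cyclic loess the list medians were 0.22 for glycogen, 0.24 for glycolysis and glucose uptake and 0.32 for the TCA cycle.

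Fatty acid oxidation had a median close to those of these groups. There 18 of 19 genes were higher with a median of 0.48. It was 0.19 under cyclic loess and 0.25 with ND replicates 1 and 3 both left out. HADH (0.85), ACADSB (0.74) and ACADL (0.70), which catalyse steps of beta-oxidation, had the smallest p without passing. Ketone and branched-chain amino acid breakdown had 15 of 16 higher and a median of 0.68, or 0.44 without HFD replicate 1, with HSD17B10 at 1.31, PCCB at 0.87 and AUH at 0.83. Nutrient sensing genes were higher in 14 of 15 (median 0.47). Of these RRAGC, a GTPase that signals amino acid supply to mTOR, rose by 0.73 ± 0.14 (SE), from 4.32, 4.45 and 4.25 to 5.15 and 4.99.

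A separate list held 30 genes of lipid handling, insulin response, vessels and remodelling that bear on diet in the heart, of which 24 were measured above the filter. In it 15 were higher, 9 lower, none passed, 5 had an unadjusted p under 0.05 and the median was 0.26. That is no larger a share than among all genes, of which 16.6% were higher and 7.41% lower at that level. CD36 read 9.07 and 8.79 in HFD and 7.13, 8.98 and 7.86 in ND, so that ND replicate 2 reached the HFD level (difference 0.94 ± 0.43 SE). It was 0.50 without ND replicate 1 and 1.43 without ND replicate 2. With ND replicates 1 and 3 both left out it was -0.06. PDK4, which blocks pyruvate use when fat is burned, differed by 0.30 ± 0.41 (SE) with overlapping groups, and turned to -0.32 without HFD replicate 2 and to -0.12 under cyclic loess. Leaving out HFD replicate 1 gave 0.93. The carnitine transferase CPT1A (0.11), the uncouplers UCP2 (-0.05) and UCP3 (-0.20), the lipase inhibitor ANGPTL4 (-0.06), the lipid droplet coats PLIN2 (0.41) and PLIN5 (-0.19), and the glucose carrier SLC2A4 (0.40) did not pass either. Of these ANGPTL4, UCP2 and PLIN5 changed sign without 1 array or another, and PLIN2 was 0.08 without HFD replicate 2. LPL (0.42, or 0.03 without ND replicate 1), SCD (0.47, or 0.05 without HFD replicate 2) and COL3A1 (0.60) did not pass. Nor did TXNIP (0.22), INSR (0.15), IRS1 (-0.04) and IGF1R (-0.18), of which TXNIP and IRS1 changed sign without 1 array or another. CPT1B, FASN and ADIPOQ were among the genes not tested, because no probe set with 1 symbol passed the filter on signal.

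The wider lipid lists gave the same picture of few calls. In fatty acid uptake and lipid droplets 18 of 28 were higher (median 0.15), in PPAR regulators and targets 13 of 17 (median 0.26, or 0.14 without HFD replicate 2), and in fatty acid synthesis 9 of 11. The last had a median of 0.35, which became 0.07 when HFD replicate 2 was left out, 0.62 when HFD replicate 1 was, and 0.19 without ND replicate 3. TECR, which completes fatty acid elongation, was at 1.46 and ACSS2, which activates acetate, at 1.0, neither past the threshold. Cholesterol synthesis had 7 of 13 higher, near the share of all genes (54.5%), with a median of 0.11, and -0.03 or -0.06 without HFD replicate 1 or 2. SC5D, a late enzyme of that pathway, passed with 5.26 and 5.56 in HFD and 4.72, 4.56 and 4.49 in ND, while HMGCS1 (0.53) and NSDHL (0.48) did not. In cholesterol export 8 of 13 were higher (median 0.06), in ceramide synthesis 8 of 11 (0.32) and in insulin signalling 12 of 17 (0.16). IGF1, the growth factor, was at 0.95 (adjusted p = 0.0536).

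**Figure D3:**
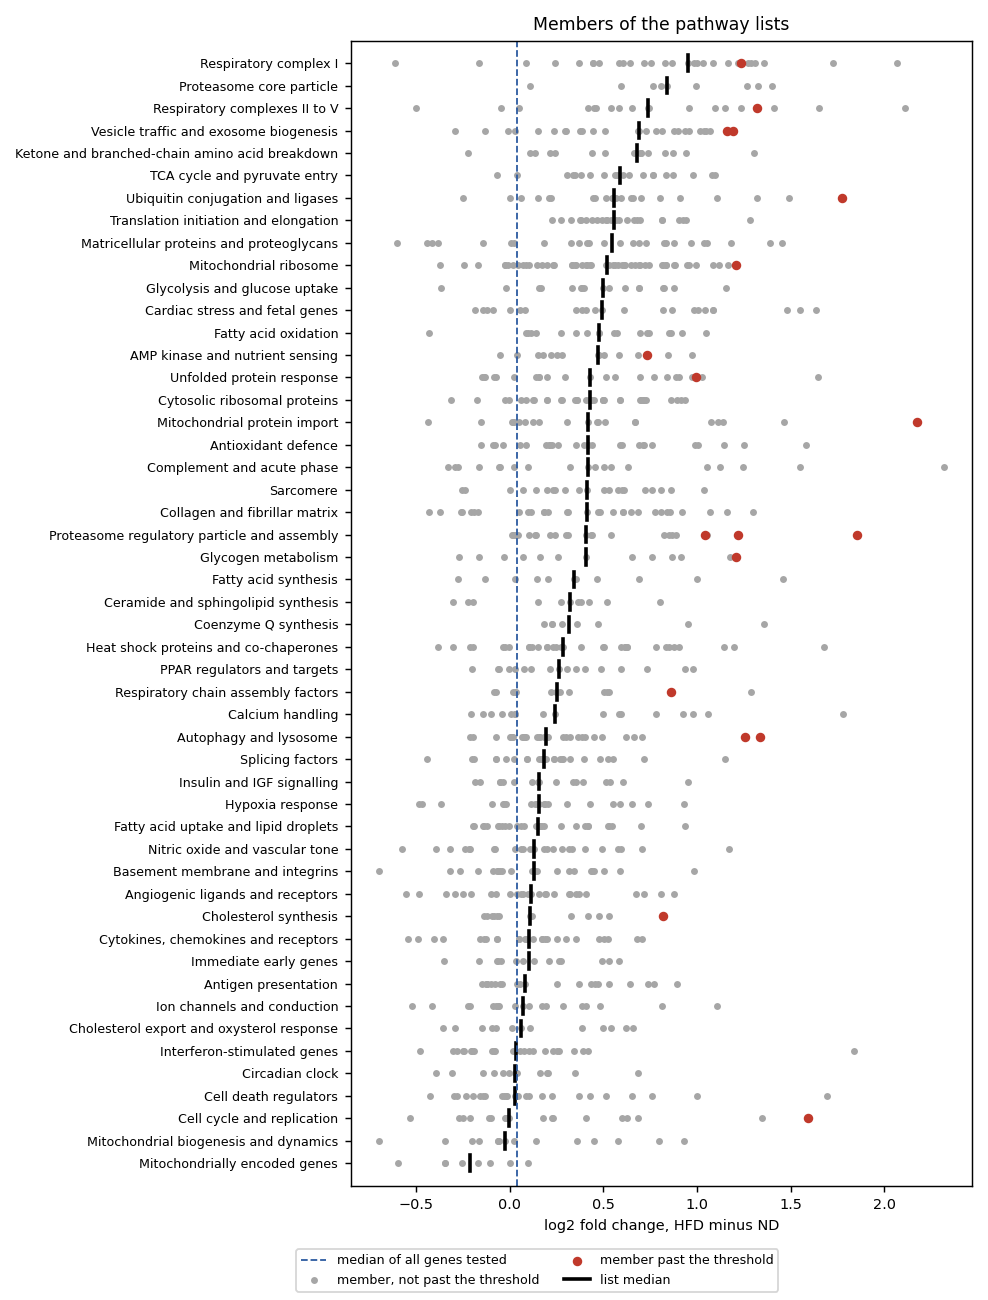
Log2 difference HFD minus ND of each measured member of the 50 pathway lists, 1 row per list in order of the list median (black bar). Grey points did not pass, red points passed, and the dashed line marks the median of all genes tested, 0.04. Of the 24 lists with a median within 0.3 of 0, 21 moved by over 1.5 times without 1 vehicle array and 8 changed sign, against 12 and 0 of the other 26. The respiratory complex I list leads with 0.95 and mitochondrially encoded genes close the order with -0.21.

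The proteasome, the chamber that degrades ubiquitin-tagged proteins, gave the list with the most calls. Every one of 23 measured genes of its regulatory particle and assembly was higher, with a median of 0.41. Of the 23, 3 passed, where 0.647% of all genes did. Like the other calls, these 3 ended under most alternatives tried. PSMD8, a lid subunit of that particle, read 8.17 and 8.38 in HFD and 6.13, 6.69 and 6.45 in ND, a difference of 1.85 ± 0.28 (SE). PSMD12, also of the lid, rose by 1.22 ± 0.22 (SE), and PSMD14, the lid's deubiquitinase, by 1.04 ± 0.19 (SE). All 9 genes of the core particle were higher too, each with both HFD arrays above the 3 ND arrays, where 23.6% of all genes stood so. Their median was 0.84, none passed, and PSMB6 (1.40, adjusted p = 0.06), PSMA6 (1.32), PSMA4 (1.27) and PSMB7 (1.0) lay between the threshold and 0.08. PSMA6 was named after its value was seen.

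Ubiquitin attachment went the same way in 21 of 22 genes (median 0.56). UBE2B, a ubiquitin-conjugating enzyme known for DNA damage tolerance, passed with 6.19 and 6.58 in HFD and 4.35, 5.33 and 4.15 in ND, a difference of 1.78 ± 0.34 (SE). ND replicate 2 was the highest ND array for it. KCMF1, a ubiquitin ligase outside the list, rose by 1.22 ± 0.22 (SE). UCHL5 (1.32), a deubiquitinase bound to the proteasome, did not pass. UBE2W (1.09) and RAD23B (0.91), which carries ubiquitinated proteins to the proteasome, also rose and were named after their values were seen.

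Autophagy genes showed 2 rises past the threshold among many small differences, where 0.647% of all genes passed. SQSTM1, the receptor that delivers ubiquitinated cargo to autophagosomes, read 7.36 and 7.72 in HFD and 6.03, 6.50 and 6.32 in ND, a difference of 1.26 ± 0.19 (SE). ATG4A, a protease that processes the LC3 family, read 7.43 and 7.23 against 5.65, 6.29 and 6.06, a difference of 1.34 ± 0.19 (SE). The median over 30 genes was 0.19 with 27 above 0, and ATP6V0D1 (0.62), part of the pump that acidifies lysosomes, did not pass.

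Vesicle traffic had 24 of 27 genes higher (median 0.69, or 0.46 without ND replicate 1). Of the 27, 2 were past the threshold, where 0.647% of all genes were. TRAPPC4, of a complex that tethers vesicles to the Golgi, read 6.61 and 6.90 in HFD and 5.48, 5.75 and 5.54 in ND, a difference of 1.16 ± 0.16 (SE). RAB14, a GTPase of Golgi and endosomes, rose by 1.19 ± 0.21 (SE), and RAB10 at 0.90 stopped just short (adjusted p = 0.0503). Outside the lists TMED2, a cargo receptor between ER and Golgi, rose by 1.42 ± 0.26 (SE), and RPN1, part of the enzyme that puts sugars on nascent proteins, by 1.28 ± 0.23 (SE). Other genes that rose outside the lists, set together here after their values were seen, were the Golgi stacking protein GORASP2 (1.21), MPI (1.16), which makes mannose phosphate for glycosylation, SAR1B (1.09), the GTPase of ER export coats, ERGIC2 (1.01) and the zinc carrier SLC30A6 (1.15).

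The unfolded protein response, which expands ER folding capacity, had 18 of 23 genes higher with a median of 0.43, or 0.18 under cyclic loess. CALR, a calcium-binding chaperone of the ER lumen, passed at 9.01 and 9.44 in HFD against 8.12, 8.33 and 8.24 in ND, a difference of 0.99 ± 0.19 (SE). DNAJB9 (1.65, or 1.07 without HFD replicate 2, adjusted p = 0.0678), a co-chaperone of the ER, and CANX (0.97), the membrane partner of CALR, did not pass. HFD replicate 2 scored higher than HFD replicate 1 on this list (0.47 and 0.09), and both lay above the ND arrays (-0.29, -0.08 and -0.19). Cytosolic chaperones had 26 of 33 higher (median 0.29), with subunits CCT2 (1.20) and CCT4 (1.14) of the folding chamber and HSPA8 (0.84) at the smallest p. Antioxidant genes had 23 of 27 higher (median 0.42, or 0.18 under cyclic loess), led by the peroxidase PRDX6 at 1.59 (adjusted p = 0.066), TXN (1.25, or 0.77 without HFD replicate 2) and PRDX1 (0.72).

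All 24 genes of translation initiation and elongation were higher, with a median of 0.56 (0.29 under cyclic loess) and none past the threshold. EIF2B1 (0.70, adjusted p = 0.0523), EIF2S2 (0.93) and EIF4G2 (0.91) had the smallest p. Cytosolic ribosomal proteins were higher in 31 of 35, with a median of 0.43. Of the 35, 6 were higher at an unadjusted p under 0.05 and 8 were higher without overlap, shares near those of all genes (16.6% and 23.6%). Their score was -0.74 on ND replicate 1, 0.21 on ND replicate 2 and 0.04 on ND replicate 3, against 0.36 and 0.14 in HFD. Here the groups overlapped, and without ND replicate 1 the median was 0.12, without ND replicate 2 it was 0.65. RPS27A (0.89, or 0.58 without ND replicate 1) and RPS4X (0.59) did not pass, and RPS3 (0.50) turned to -0.01 under cyclic loess.

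**Figure D4:**
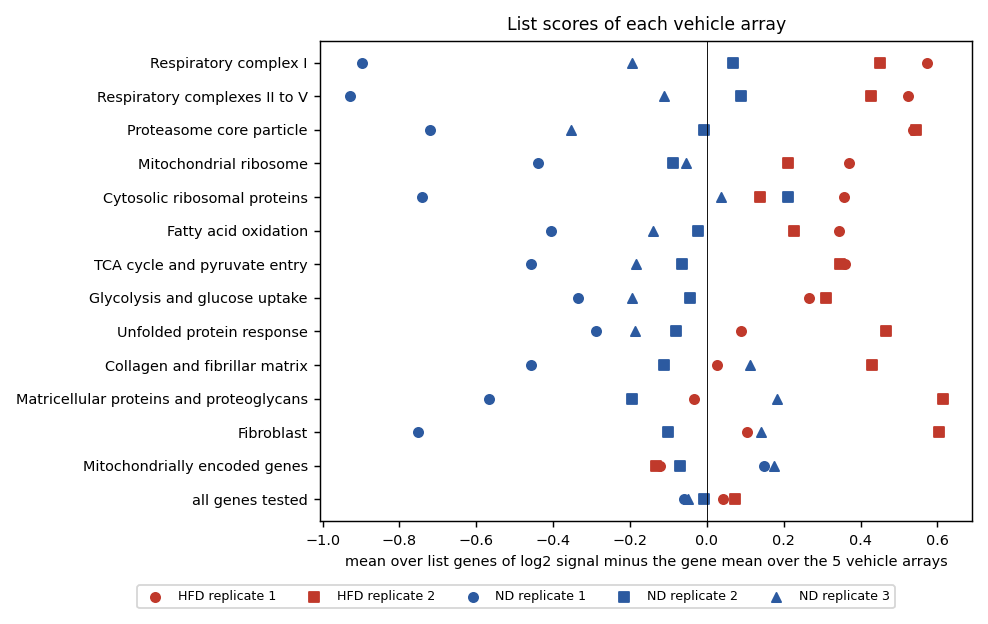
List score of each vehicle array, its average log2 deviation from the mean of the 5 vehicle arrays, for 13 lists and for all genes tested. Red marks are HFD and blue marks ND. ND replicate 1 lies far to the left in the respiratory, ribosomal and matrix lists, and the colours overlap for cytosolic ribosomal, collagen, matricellular and fibroblast genes.

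Matrix genes were higher in HFD on the whole, and HFD replicate 2 was the highest array. SPON1, spondin 1, an extracellular matrix protein outside the lists, passed with 7.32 and 8.05 in HFD and 5.53, 6.28 and 6.30 in ND. Its difference was 1.65 ± 0.31 (SE). Of 26 matricellular genes 21 were higher (median 0.55), and of 31 collagen and fibrillar matrix genes 24 (median 0.42), with none past the threshold. Under cyclic loess these medians were 0.21 and 0.24. POSTN, periostin, made by activated fibroblasts, read 7.71 and 8.62 against 5.90, 6.90 and 7.33 (1.46 ± 0.40 SE, adjusted p = 0.079). COL1A1 read 10.38 and 11.55 against 8.87, 9.53 and 11.02, and ND replicate 3 lay above HFD replicate 1. VCAN (1.18, or 0.60 without HFD replicate 2), COL14A1 (0.78) and TGFB1 (0.60) were higher without overlap, whereas CYR61 (-0.60) and the collagen cross-linker LOXL3 (-0.43) were lower without overlap, none of the 5 past the threshold. Among all genes 23.6% were higher and 15.9% lower without overlap.

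Fibroblast markers were higher as well. All 10 measured markers were higher, with a median of 0.60 and scores of -0.75, -0.10 and 0.14 on the ND arrays and 0.11 and 0.60 on HFD. Apart from the dim TCF21, which went down to 3.79, each marker read at least 6.38 on every vehicle array, PI16 being the lowest. The groups overlapped, since ND replicate 3 scored above HFD replicate 1. Without HFD replicate 2 or ND replicate 1 the medians were 0.33 and 0.34 for fibroblast markers, 0.31 and 0.36 for matricellular genes and 0.23 and 0.26 for collagens. The part of fibroblast content in these lists was not tested, and in tissue RNA more cells of a type cannot be told apart from more RNA per cell.

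Cardiac stress and fetal genes were higher in 19 of 23 (median 0.49, or 0.24 without ND replicate 1). SYNPO2L (1.08), RCAN1 (1.04, or 0.56 without HFD replicate 2) and ANKRD1 (0.87), a mechanical stress protein, had the smallest p and did not pass. NPPA, the atrial natriuretic peptide, read 7.15 and 9.27 in HFD against 6.35, 6.71 and 6.67 in ND (1.63 ± 0.65 SE, adjusted p = 0.165). Its height came from HFD replicate 2, as did that of SLN, the atrial inhibitor of the calcium pump, at 3.77 and 6.73 against 3.18, 3.46 and 3.77. Atrial markers scored 0.58 on HFD replicate 2 and 0.06 on HFD replicate 1, with ND at -0.49, -0.24 and 0.08, and the part of atrial or immature muscle was not tested. NPPB, the other natriuretic peptide, ranged from 5.78 to 9.25 within ND, which covered HFD replicate 1 (7.69).

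Contractile genes gave no call. Of 21 sarcomere genes 19 were higher (median 0.42, or 0.08 under cyclic loess), with SMYD1 (1.04), TPM1 (0.86) and CAPZA1 (0.72) at the smallest p and none past the threshold. MYH7, the ventricular heavy chain, was at 0.41, and at -0.10 under cyclic loess. Calcium handling had 13 of 17 higher (median 0.24) with CASQ1 (1.06), a calcium store protein, and CACNB2 (0.78). Ion channel genes had 11 of 19 higher (median 0.07, turning to -0.11 without HFD replicate 1 and to -0.0027 under cyclic loess). GJA1 (1.11), the gap junction protein, and the sodium pump subunit ATP1B1 (0.81) did not pass.

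Vessel and oxygen genes gave no call. Of 27 angiogenic ligands and receptors 19 were higher with a median of 0.12. VEGFA, the main endothelial growth factor, was lower in HFD without overlap, at 9.66 and 9.55 against 10.52, 9.87 and 9.86 (-0.48 ± 0.21 SE, adjusted p = 0.196), and at -0.26 without ND replicate 1. NOS3, the endothelial nitric oxide synthase, was also lower without overlap, at 4.72 and 5.10 against 5.46, 5.63 and 5.35 (-0.57 ± 0.21 SE, adjusted p = 0.136). Such falls were held by 15.9% of all genes, 5 of the 27 angiogenic genes and 1 of the 25 vascular tone genes. EGFL7 (-0.55), secreted by endothelium, was lower and CXCR4 (0.81, or 0.45 without HFD replicate 2) and DLL4 (0.72), the Notch ligand of sprouting tips, were higher. KDR, the VEGF receptor, had overlapping groups (0.68) and a second probe set of opposite sign. Of 22 hypoxia genes 15 were higher (median 0.16), with HIF1A (0.93), HIF1AN (0.74) and EGLN1 (0.59). In vascular tone 17 of 25 were higher (median 0.13), with the endothelin receptor EDNRA at 1.17 and the angiotensin receptor AGTR1 at 0.71.

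Immune genes gave no call. Interferon-stimulated genes had 13 of 24 higher and a median of 0.04, where 54.5% of all genes were higher and their median was 0.04. OAS2, a sensor of double-stranded RNA, was the highest of them, at 8.12 and 7.81 in HFD and 5.14, 6.34 and 6.90 in ND (1.84 ± 0.53 SE, adjusted p = 0.0839). Cytokines and their receptors had 17 of 26 higher (median 0.11), and antigen presentation 13 of 21 (median 0.08, turning to -0.04 without ND replicate 1). Complement and acute phase genes had 13 of 19 higher (median 0.42, or 0.21 without ND replicate 1). A2M, a plasma protease inhibitor, had the largest difference of any gene tested, at 6.43 and 7.29 against 4.58, 4.44 and 4.61 (2.32 ± 0.63 SE, adjusted p = 0.0778). It did not pass, and the HFD+EV arrays read 6.25, 3.96 and 4.15. The complement proteins C7 (1.25, or 0.74 without HFD replicate 2, adjusted p = 0.057) and MASP1 (1.05) did not pass either.

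Medians of the other cell marker lists ran from -0.40 for red cells to 0.30 for lymphatic endothelium (3 of 3 higher). Neutrophil markers, dim at a median signal of 3.85, were at -0.38 (1 of 3 higher), or -0.20 without ND replicate 3. Epicardial markers were at 0.03 (4 of 7), mast cell markers at -0.01 (2 of 4), skeletal muscle markers at -0.08 (2 of 4) and the single platelet marker at -0.11. Endothelial markers were higher in 7 of 9 (median 0.19) and ventricular muscle markers in 5 of 8 (0.27), and both medians turned to -0.16 under cyclic loess. Macrophage markers were at 0.10 (6 of 10 higher, with C1QB at 1.12, or 0.58 without ND replicate 1, and MARCO at -0.63), smooth muscle and pericyte markers at 0.02 (7 of 10), T and NK cell markers at -0.06 (5 of 13) and adipocyte markers at -0.13 (2 of 9). Markers of red cells (0 of 4), B cells (0 of 4) and nerve (0 of 3) were lower. The red cell and B cell markers were dim, with median signals of 4.10 and 4.31, and all probe sets in that part of the signal range had a median of -0.11. The nerve markers, at a median signal of 5.01 like that of all genes, had a median of -0.36.

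Further named rises lay outside the lists, apart from SKA2 of the cell cycle list. PCP4L1, a small calmodulin-binding protein, read 5.80 and 6.70 in HFD and 4.52, 4.51 and 3.88 in ND, a difference of 1.94 ± 0.25 (SE). FAM129A, a stress-responsive protein of the niban family, rose by 1.77 ± 0.30 (SE) and ANKH, a membrane exporter of pyrophosphate and citrate, by 1.40 ± 0.25 (SE). SKA2, a kinetochore protein, read 6.40 and 6.52 against 4.84, 5.37 and 4.38. It was the only 1 of 19 cell cycle genes to pass, while 9 of the 19 were higher and the median was -0.0030. Named after their values were seen, the kinase STK39 (1.15), which controls chloride cotransporters, CDO1 (1.14), the first enzyme of cysteine oxidation, and the stress kinase MAPK8 (0.89) rose as well.

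Of the 5 named genes that fell, none belonged to a pathway list. DDI1, a protease related to ubiquitin shuttling factors, read 3.53 and 3.61 in HFD and 5.21, 4.61 and 4.65 in ND, a difference of -1.26 ± 0.19 (SE). MIR181A-2, the gene of a microRNA precursor, read 4.46 and 4.93 against 5.89, 6.18 and 5.62, a difference of -1.20 ± 0.22 (SE). CLEC1B, a podoplanin receptor best known from platelets, fell by 0.74, from 5.18, 4.95 and 5.12 to 4.29 and 4.4. CCDC38 fell by 0.81 and LRRC71 by 0.65. All 5 were dim in HFD, with DDI1 at 3.53 the lowest and MIR181A-2 at 4.93 the highest, where the filter on signal stood at 3.63. The next 10 in line did not pass: ATN1 (-1.16), MIR885 (-1.05), HOOK2 (-0.88), CUEDC1 (-0.83), FHL5 (-0.71), KCNE3 (-0.71), CCDC129 (-0.68), SNCB (-0.67), LRRC51 (-0.63) and CCDC121 (-0.61). The rule that picked these 10 required both HFD arrays to lie below the ND arrays.

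The diet was also compared in EV-injected hearts, which share no array with the vehicle hearts. There 0 of 20668 probe sets passed in limma's test (0%), 1522 had an unadjusted p under 0.05 (7.36%) against 4963 in vehicle hearts (24%), and the groups did not overlap in 14.5% against 39.1% (19.4% higher and 19.7% lower). Across probe sets the diet differences of both settings correlated at 0.397 (Pearson) and 0.418 (Spearman), a description in which probe sets are not independent. Of the 54 named genes that rose in vehicle hearts 49 were also above 0 in EV hearts, as were 5307 of all 9738 genes. The median of the 54 was 0.29 in EV hearts against 1.11 in vehicle hearts. They were chosen for a large difference in vehicle hearts, so a smaller one in EV hearts is no test of a weaker diet effect. In EV hearts TOMM22 was at 0.92, ANKH at 0.73, PSMD8 at 0.56, ATP5A1 at 0.34, PCP4L1 at 0.12 and UBE2B at -0.16. Of the 5 that fell, 3 were below 0 in EV hearts (median -0.12 against -0.81). Among all probe sets 66.7% had the same sign in both comparisons.

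The test of the difference between the diet effects called 0 probe sets (0%), with 1740 at an unadjusted p under 0.05 (8.42%), so for no gene was the diet effect shown to differ between vehicle and EV hearts. For the 59 named genes its adjusted p was 0.572 to 0.764. By list, the vehicle and EV medians were 0.95 and 0.02 for complex I, 0.84 and 0.25 for the proteasome core, 0.43 and -0.26 for cytosolic ribosomal proteins, 0.48 and 0.24 for fatty acid oxidation and 0.04 and 0.65 for interferon-stimulated genes. In the last list all 24 genes were above 0 in EV hearts.

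**Figure D5:**
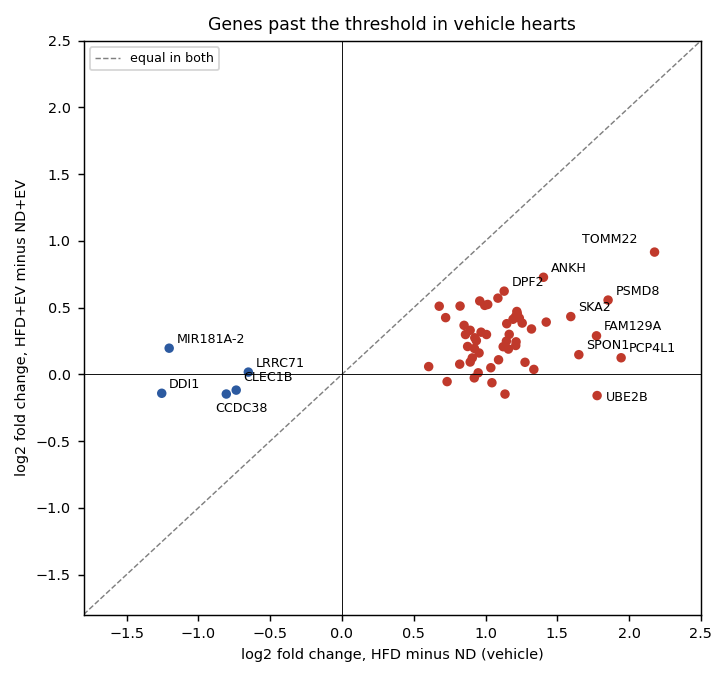
Log2 diet difference in EV-injected hearts (HFD+EV minus ND+EV) against that in vehicle hearts (HFD minus ND) for the 59 named genes past the threshold in vehicle hearts. Red points rose and blue points fell in vehicle hearts, and the dashed line marks equal differences. Every red point lies below the line, and 49 of 54 lie above 0 on the vertical axis, as do 5307 of all 9738 genes. The genes were picked for their vehicle difference, so their place below the line is no test of a weaker diet effect in EV hearts.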

How the data were processed

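Per the labels, the array targets were made from 50 ng of total RNA. Transcriptome Analysis Console is named in the submitters' processing notes. The authors deposited normalized log2 signal for 27558 probe sets. The sources used here do not give its normalization, its annotation version or a build. With arrays, their number limits precision. Probe sets in the lowest 25% of mean signal (cutoff 3.63) were dropped, which left 20668. Group means over all 11 arrays were fitted with limma 3.58.1 in R 4.3.3 (default eBayes, 7 residual and 3.62 prior degrees of freedom). The 3 contrasts were tested two-sided, and p-values adjusted by Benjamini-Hochberg across probe sets. The fit was also run on simulated data with independent normal noise. That run held neither the slope with signal nor an outlying array, so it cannot show how stable the calls are. Errors are limma's SE. In the platform annotation 13157 probe sets had 1 symbol, 523 had several and 13878 had none, and 12841 matched a current gene table. A gene's value is that of its brightest probe set with 1 symbol.

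The comparison, the 67 gene lists (50 pathway, 17 cell type) and the diet genes were chosen with earlier results of these data known. The naming rule picked up to 15 genes per direction that passed at a fold of 1.5 or more, any places left going to the smallest p without overlap. From each list of at least 5 measured members up to 3 with the smallest p were added, with members that passed and all measured diet genes. Not every gene picked from the lists is given in the text. Other names were chosen after their values were seen. Probe sets of DLAT, KDR, SCARB1, INSR and CPT1A disagreed in sign. Replicate numbers did not pair the samples.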

Additional observations from a re-analysis of the deposited data

Results flagged for a closer look

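For 2 of the 218 genes that the naming rule picked, the diet difference ran in opposite directions in vehicle and EV hearts, with no overlap between diets in either. The other genes tested were not searched for this, so no share over all genes can be set beside the 2. Over all probe sets the diets did not overlap in 39.1% in vehicle hearts and in 14.5% in EV hearts, in either direction. The naming rule also favoured genes with a small p or no overlap in vehicle hearts. ABCA1, the exporter of cellular cholesterol, was lower in HFD than in ND (a difference of -0.29) and higher in HFD+EV than in ND+EV (0.59), so the diet effects differed by -0.881. UBE2L3, a ubiquitin-conjugating enzyme, was higher in HFD than in ND (0.80) and lower in HFD+EV than in ND+EV (-0.32), so the diet effects differed by 1.12. The difference was tested with limma for both, and neither passed (adjusted p = 0.572 for each).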

How the results depend on the processing

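In HFD against ND, 0 probe sets passed in either direction with no filter on low signal, quantile normalization, cyclic loess, the 5 vehicle arrays alone, a trended robust variance, array weights, or both ND replicates 1 and 3 left out. An unadjusted p under 0.05 was held by 2965 higher and 2948 lower probe sets with no filter. Leaving out the dimmest 50% gave 159 higher and 55 lower, keeping 1 of the probe sets that share all values 95 and 40, and a common array median 162 and 42. With the replicate number as a block 705 rose and 233 fell, although same-numbered HFD and ND arrays did not deviate together (r = 0.080 and 0.014). Leaving out 1 array at a time gave 0 to 896 higher and 0 to 460 lower, and in HFD+EV against ND+EV 0 to 2 higher and 0 to 1 lower. That comparison had 8 higher and 2 lower with array weights and 2 higher without both ND replicates, and the difference of the diet effects had 0 to 1 higher without 1 array. In the fit of the 5 vehicle arrays the adjusted p of the 59 named genes was 0.208 to 0.209. Under cyclic loess all 59 kept their direction and 46 stayed within 1.5 times of their difference. Among list medians, it lowered those of the proteasome core to 0.62, vesicle traffic to 0.42, ubiquitin attachment to 0.31 and the proteasome regulatory particle to 0.24. That of cytosolic ribosomal proteins fell to 0.12, while those of respiratory assembly factors and calcium handling rose to 0.29 and 0.26. Signal near the filter limits the genes that fell.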

Other observations

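Splicing factors, not described above, were higher in 21 of 27 genes with a median difference of 0.19, or 0.08 without ND replicate 3 and -0.01 under cyclic loess. MBNL1, a muscle splicing regulator, read 9.02 and 9.51 in HFD and 7.85, 8.66 and 7.82 in ND (difference 1.15, adjusted p = 0.06). Basement membrane and integrin genes were higher in 13 of 22 (median 0.13), with the sarcoglycan SGCB at 0.98. Cell death regulators were higher in 13 of 25 (median 0.03), with PERP at 1.70 (adjusted p = 0.055) and the outer membrane channel VDAC2 at 1.0, neither past the threshold. Clock genes were higher in 7 of 13 (median 0.03), with BHLHE40 at 0.69. Of all genes 54.5% were higher, near the shares of the basement membrane, cell death and clock lists. Immediate early genes were higher in 9 of 14 (median 0.10), with MYC at -0.35 and no overlap between diets. It was the only 1 of the 14 to be lower without overlap, where 15.9% of all genes were.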
